A study of Mus musculus with 20 samples.

Results

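Tumours of mice given propafenone were set directly against tumours of mice given anti-PD-1, 5 libraries a side, so 10 of the 20 libraries of the series. Every gene with enough counts was tested, and the groups were taken from the sample labels and not from any measured value. All tumours grew from B16F10, a melanoma cell line of C57BL/6 origin, in immunocompetent C57BL/6 mice. Injections began once tumours reached about 100 mm3, and tumours were excised on day 16 for bulk RNA sequencing. The propafenone label names propafenone alone, the anti-PD-1 label names the antibody alone, the combination group (5 tumours) had both, and the IgG group (5 tumours) had control antibody. Whether the propafenone mice also had IgG is not settled by the labels. The labels give neither doses, antibody clone, injection days, sex nor age, and they do not say whether each tumour came from its own animal. The p-values therefore set the group difference against the spread between tumours, estimated over all 20 libraries, and not against a spread between animals.

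Propafenone is a class Ic antiarrhythmic drug that blocks voltage-gated sodium channels and, more weakly, beta-adrenergic receptors. Anti-PD-1 blocks the inhibitory receptor PD-1 on activated T cells, and a tumour that responds to it usually gains interferon gamma signalling, antigen presentation and cytotoxic lymphocytes. B16F10 is known as a poorly immunogenic tumour with few lymphocytes, so its bulk RNA comes mostly from pigmented tumour cells, with smaller parts from fibroblasts, vessels, macrophages and, at the margin, skin and muscle. In such bulk RNA, fewer cells of a type and less RNA per cell cannot be told apart.

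Library totals of the 10 tumours ran from 56 to 63.3 M expected counts (M, mega), and no library was a copy of another, with correlations of log2 CPM (counts per library total with TMM scaling factors, the level used throughout) of 0.958 to 0.985. The melanoma identity held in every library: Tyrp1, a melanin synthesis enzyme, measured 4610.2 to 6796 CPM in the propafenone tumours and 5574 to 6890.3 CPM in the anti-PD-1 tumours. Within the 10 libraries, the first and second principal components carried 21.8% and 19.2% of the variance, and neither separated the groups. Tumour 2 of anti-PD-1 stood apart at -76.4 on the second component, against -25.8 to 23.6 for the other 9. That tumour also held 1526 CPM of the haemoglobin gene Hbb-bs and had a skeletal muscle score of -3.21, against 1.23 to 1.84 in the other anti-PD-1 tumours (a score is the mean of a list's log2 CPM, each gene centred over the 20 libraries). Tumour 4 of propafenone had the highest T cell and interferon gamma scores of its group, 1.26 and 1.43, and 1015 CPM of Hbb-bs. Both tumours are followed through the results.

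Across all genes, the propafenone and anti-PD-1 tumours differed in small amounts, and no single gene passed the test. The edgeR quasi-likelihood test found 0 of 15875 genes (0%) at a Benjamini-Hochberg adjusted p under 0.05. At an unadjusted p under 0.05 it found 2397, where 794 would be expected if no gene differed. Of these, 1157 were higher (7.29% of genes tested) and 1240 lower (7.81%) in propafenone. The smallest adjusted p was 0.109, shared by Serpinf1 and Atf5, and 104 genes had an adjusted p under 0.15. DESeq2 called 253 genes (126 higher, 127 lower), limma voom 0, limma on log2(TPM + 1) called 1 (Rflna, log2 fold change 0.76) and limma on log2(TPM + 0.1) called 0. The 5 propafenone values lay wholly above the 5 anti-PD-1 values in 106 genes (0.668%) and wholly below in 151 (0.951%). Fold changes are given as log2 of propafenone over anti-PD-1 throughout, and their median over all genes was -0.0041, with quartiles of -0.172 and 0.149.

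The count of called genes depended on tumour 4 of propafenone. Without it, edgeR called 316 of 16066 genes, 159 higher (0.99%) and 157 lower (0.977%), with median log2 fold changes of 0.475 and -0.673. Of the 314 that were also tested with all libraries, 314 kept their direction, and for 224 of these 314 tumour 4 lay between the lowest and highest anti-PD-1 tumour. Both counts follow in part from the selection, since the genes were called by leaving tumour 4 out and the fits share all other libraries. They do not describe tumour 4 over all genes. Without tumour 1 of anti-PD-1 the calls were 2, Atf5 at -1.05 and Serpinf1 at -1.02, both with an edgeR adjusted p of 0.00443. Leaving out any other of the 20 libraries gave 0. What sets tumour 4 of propafenone near the anti-PD-1 tumours in these selected genes was not tested.

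**Figure D1:**
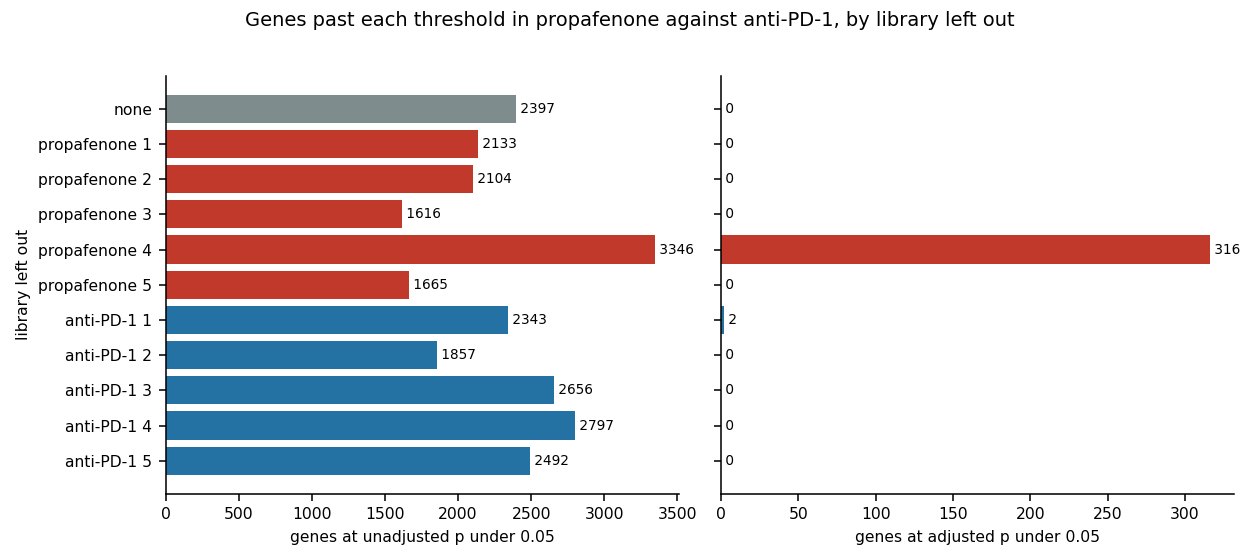
Number of genes past each threshold (x axes, genes) when 1 library is left out of the edgeR fit (y axis, library left out, propafenone libraries above anti-PD-1 libraries). The bar for propafenone 4 reaches 3346 genes at an unadjusted p under 0.05 and 316 at an adjusted p under 0.05, against 2397 and 0 with all libraries.

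Because edgeR called no gene, the genes named are the 8 of smallest p in each direction, together with members of pathway lists. All have an edgeR adjusted p above 0.05 with all libraries and are described by their values. DESeq2 called the 8 in each direction, with DESeq2 adjusted p from 0.000238 (Serpinf1 and Atf5) to 0.00765 (Mcm3ap). List members lay on both sides of 0.05 in DESeq2, for example Lum at 0.00684 and Vegfa at 0.132. Among the 8 lower in propafenone were several secreted matrix and stromal proteins. Serpinf1 (chr11:75409769-75422701, GRCm38, minus strand) encodes pigment epithelium-derived factor, a secreted inhibitor of vessel growth. It measured 31.1, 24.7, 24.1, 22.6 and 27.2 CPM in the propafenone tumours and 30.9, 69.0, 52.5, 42.4 and 46.0 CPM in the anti-PD-1 tumours. The overlap came from tumour 1 of each group, and the log2 fold change was -0.89 (SE 0.156, edgeR adjusted p 0.109). Its IgG tumours measured 32.9 to 42.5 CPM.

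Ltbp4, Aspn and Postn, also among these 8, are matrix genes: a latent TGF-beta binding protein, the proteoglycan asporin and periostin. Postn (chr3:54361109-54391037, plus strand) measured 15.6, 24.9, 11.6, 20.3 and 22.8 CPM in the propafenone tumours, against 34.8, 27.5, 42.9, 32.6 and 34.4 CPM in the anti-PD-1 tumours. No values of the groups overlapped, and the log2 fold change was -0.85 (SE 0.179, edgeR adjusted p 0.129). The combination tumours measured 39.8 to 60.2 CPM and the IgG tumours 14.6 to 22.9 CPM, so the propafenone tumours lay near IgG and the anti-PD-1 tumours above all 5 IgG tumours. Aspn (chr13:49544443-49567565, plus strand) averaged 3.05 ± 0.964 CPM in propafenone and 6.35 ± 0.259 CPM in anti-PD-1 tumours (SD, n = 5 each), and Ltbp4 (chr7:27305136-27337692, minus strand) averaged 5.76 ± 1.01 CPM in propafenone and 10.8 ± 2.22 CPM in anti-PD-1 tumours. Neither gene overlapped between the groups.

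Atf5 (chr7:44812256-44816658, minus strand) encodes a stress-induced transcription factor of the ATF4 branch. Its propafenone tumours measured 21.5, 21.5, 28.3, 25.9 and 24.2 CPM and its anti-PD-1 tumours 29.2, 54.1, 48.0, 34.5 and 63.8 CPM. All 5 propafenone values lay below all 5 anti-PD-1 values, with a log2 fold change of -0.92 (SE 0.162, edgeR adjusted p 0.109). The IgG tumours, at 32.5 to 41.8 CPM, also lay above every propafenone tumour. Tspan7 (a tetraspanin membrane protein), Khdc4 (a KH-domain RNA-binding protein) and Tmem86a (a lysoplasmalogenase) completed the 8, with log2 fold changes of -0.47, -0.53 and -0.64. Tspan7 and Khdc4 did not overlap between the groups, while Tmem86a did through tumour 4 of both.

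The 8 genes higher in propafenone were of mixed function. Dpf1 (chr7:29303951-29318243, plus strand), a subunit of BAF chromatin remodelling complexes known from neurons, measured 11.1, 8.41, 18.5, 7.22 and 20.2 CPM in the propafenone tumours and 4.28, 5.4, 6.5, 5.5 and 6.85 CPM in the anti-PD-1 tumours. The groups did not overlap, tumours 3 and 5 of propafenone were the highest, and the log2 fold change was 1.20 (SE 0.243, edgeR adjusted p 0.129). Its IgG tumours measured 9.14 to 15.2 CPM, so here the anti-PD-1 tumours lay below all IgG tumours. Map3k1 (chr13:111746428-111808993, minus strand), a kinase upstream of the JNK and ERK cascades, measured 45.4, 45.6, 69.8, 35.2 and 69.7 CPM in propafenone and 24.5, 23.3, 31.4, 34.4 and 33.9 CPM in anti-PD-1 tumours. Its groups were separated by less than 1 CPM between tumour 4 of propafenone and tumour 4 of anti-PD-1, with a log2 fold change of 0.85 (SE 0.176, edgeR adjusted p 0.129).

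The other 6 had smaller differences. Tnfrsf19, a receptor of the TNF receptor family, stood at 0.65 on the log2 scale. Sapcd2 and Fam83d, both tied to the mitotic spindle, stood at 0.46 and 0.33, the mismatch repair gene Pms2 at 0.38, Mcm3ap (mRNA export) at 0.34 and Tnfaip8l1 at 0.50. Of these 6, Tnfrsf19 and Mcm3ap overlapped between the groups, in each case through tumour 4 of propafenone and tumour 4 of anti-PD-1.

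**Figure D2:**
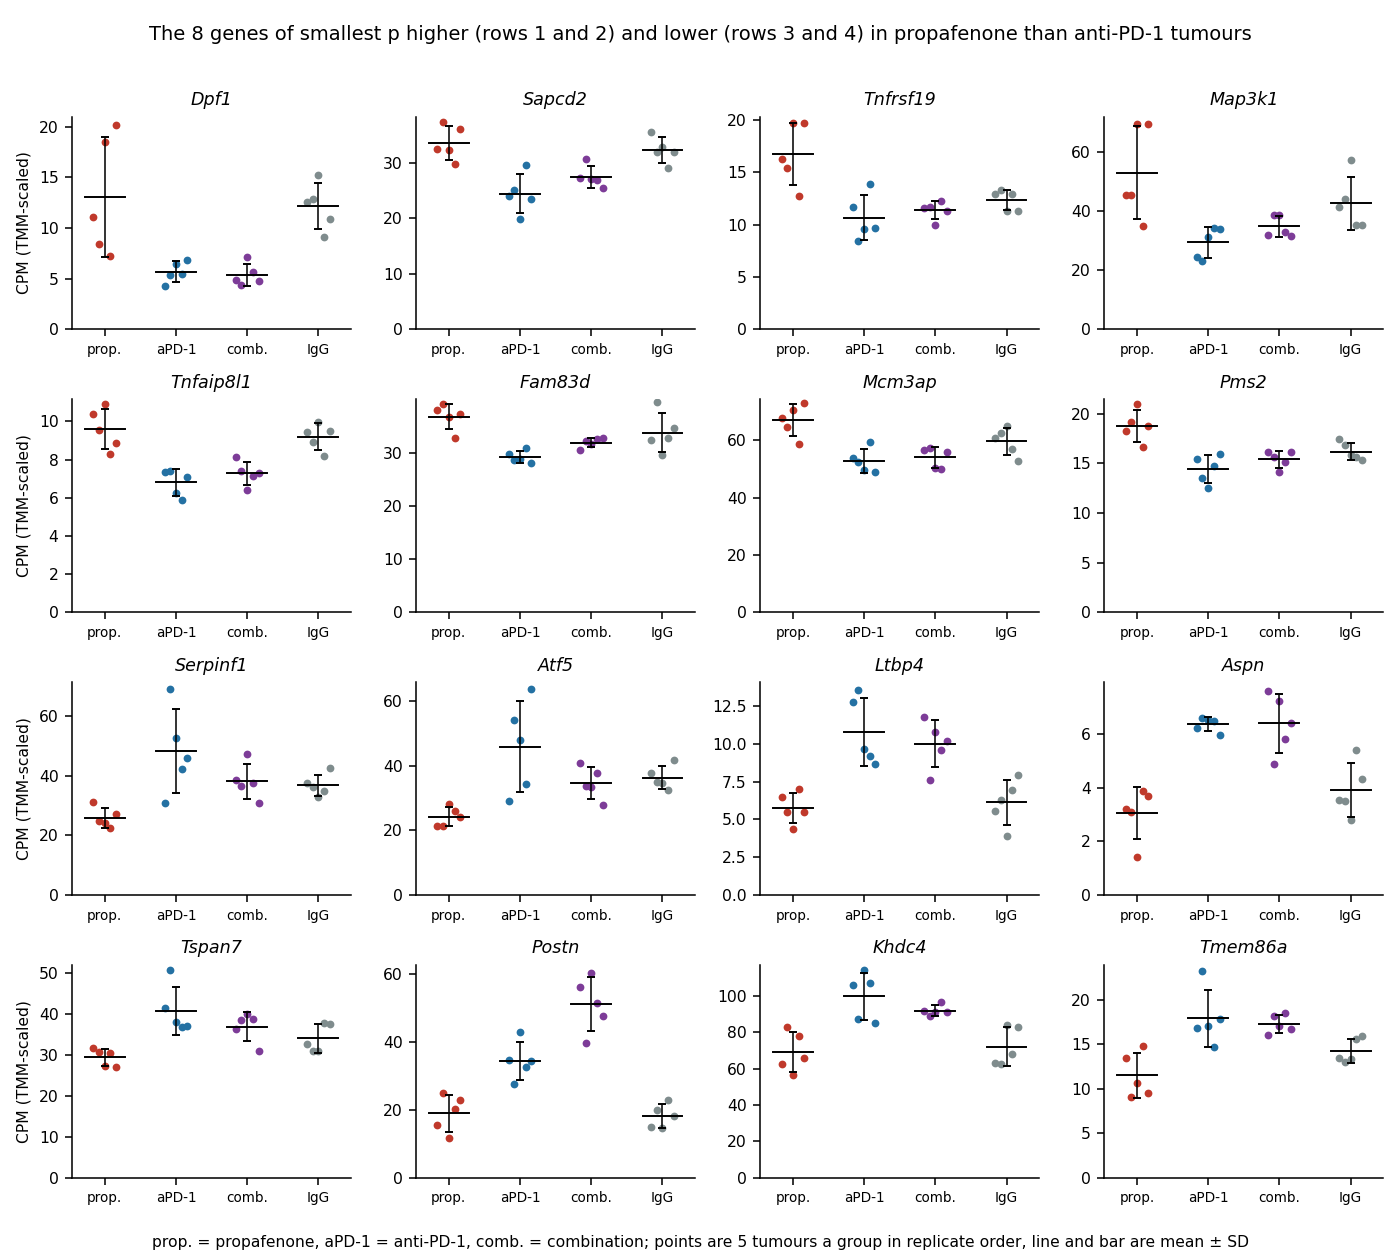
CPM (y axes, linear from 0) of the 8 genes of smallest p in each direction for the 5 tumours of each group, propafenone leftmost, then anti-PD-1, combination and IgG, with mean and SD. The Atf5 points of propafenone lie at 21.5 to 28.3 CPM, below all anti-PD-1 points, and the Dpf1 points of propafenone lie at 7.22 to 20.2 CPM, above all anti-PD-1 points.

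Nearly all fibroblast and matrix genes stood lower in propafenone than in anti-PD-1 tumours. All 17 fibroblast markers tested had a negative log2 fold change (median -1), 13 with an unadjusted p under 0.05 where 7.81% of all genes were lower at that level, and 0 were called. For 4 of them (Fap, Thy1, Dcn and Lum) the values of the groups did not overlap, where 0.951% of all genes were lower without overlap. Lum, the collagen-binding proteoglycan lumican, measured 0.461, 1.51, 0.699, 1.43 and 1.01 CPM in the propafenone tumours and 3.13, 3.15, 2.81, 2.6 and 3.34 CPM in the anti-PD-1 tumours, a log2 fold change of -1.55 (SE 0.365, edgeR adjusted p 0.129). Fap, the surface protease of activated fibroblasts, averaged 0.593 ± 0.103 CPM in propafenone and 1.19 ± 0.305 CPM in anti-PD-1 tumours (SD, n = 5 each).

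Of 25 collagen and matrix genes, 24 stood lower in propafenone (median -0.73), 19 with an unadjusted p under 0.05, where 7.81% of all genes were lower. Col3a1, the main chain of type III collagen, measured 36.0, 59.9, 21.4, 76.5 and 67.3 CPM in the propafenone tumours, against 96.1, 341, 136, 151 and 131 CPM in the anti-PD-1 tumours. Every anti-PD-1 tumour lay above every propafenone tumour, and tumour 2 of anti-PD-1 was the highest of the 10, with a log2 fold change of -1.71 (SE 0.493, edgeR adjusted p 0.174). Col1a1 overlapped through tumour 1 of anti-PD-1 at 60.0 CPM and stood at -1.11. Timp2, an inhibitor of matrix metalloproteases, averaged 145 ± 26.5 CPM in propafenone and 204 ± 20.7 CPM in anti-PD-1 tumours (SD, n = 5 each) without overlap, and Mmp14, a membrane metalloprotease, was the member on the other side, at 0.14.

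Part of the size of both lists came from tumour 2 of anti-PD-1. Without it the medians were -0.59 (fibroblast) and -0.46 (matrix), and 7 of 17 and 9 of 25 members were lower at an unadjusted p under 0.05, where 5.36% of all genes were. Without tumour 1 or tumour 3 of propafenone, 8 of the 17 fibroblast markers were lower at that level, where 6.51% and 6.23% of all genes were. Without tumour 4 of propafenone, 10 and 15 members were lower at that level, where 10.7% of all genes were. Lum, Pdpn, Postn, Timp2 and Ltbp4 were called in that fit, where 0.977% of all genes were called lower. The fibroblast scores of the groups did not overlap: -1.38 to -0.17 in propafenone and -0.04 to 1.15 in anti-PD-1 tumours. Set against IgG, whose 5 libraries both comparisons share, the fibroblast markers had a median of -0.23 in propafenone and 0.76 in anti-PD-1, and the matrix genes -0.18 and 0.45.

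Endothelial genes stood lower in propafenone as well. Of 20, 19 had a negative log2 fold change (median -0.49), with Vwf (von Willebrand factor) at 0.40 the exception. An unadjusted p under 0.05 was reached by 12, where 7.81% of all genes were lower at that level. Cdh5, the adhesion protein of vessel walls, measured 25.4, 24.5, 11.4, 25.9 and 12.2 CPM in the propafenone tumours and 31.7, 26.9, 27.8, 31.0 and 32.5 CPM in the anti-PD-1 tumours. Tumours 3 and 5 of propafenone were the lowest, the groups did not overlap, and the log2 fold change was -0.59 (SE 0.198, edgeR adjusted p 0.206). Tek, the angiopoietin receptor, also did not overlap. Pecam1, Tie1, Plvap and Egfl7 were called without tumour 4 of propafenone, where 0.977% of all genes were called lower. The median was -0.46 without tumour 2 of anti-PD-1, with 12 of 20 members lower at an unadjusted p under 0.05 (5.36% of all genes). That count was 8 without tumour 3 or tumour 5 of propafenone (40% of the list, against 6.23% and 5.69% of all genes). The medians were then -0.379 and -0.444. Without tumour 5 of anti-PD-1 the count was 9 (45%, against 7.86%), and without tumour 4 of propafenone 14 (70%, against 10.7%). Vegfa, the ligand that drives vessel growth, stood on the other side: it measured 283, 265, 604, 191 and 554 CPM in the propafenone tumours and 114, 264, 308, 190.4 and 228 CPM in the anti-PD-1 tumours. Its 2 highest values were tumours 3 and 5 of propafenone, the same libraries that were lowest in Cdh5, while the other 3 lay inside the anti-PD-1 range (log2 fold change 0.78, SE 0.291, edgeR adjusted p 0.233).

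**Figure D3:**
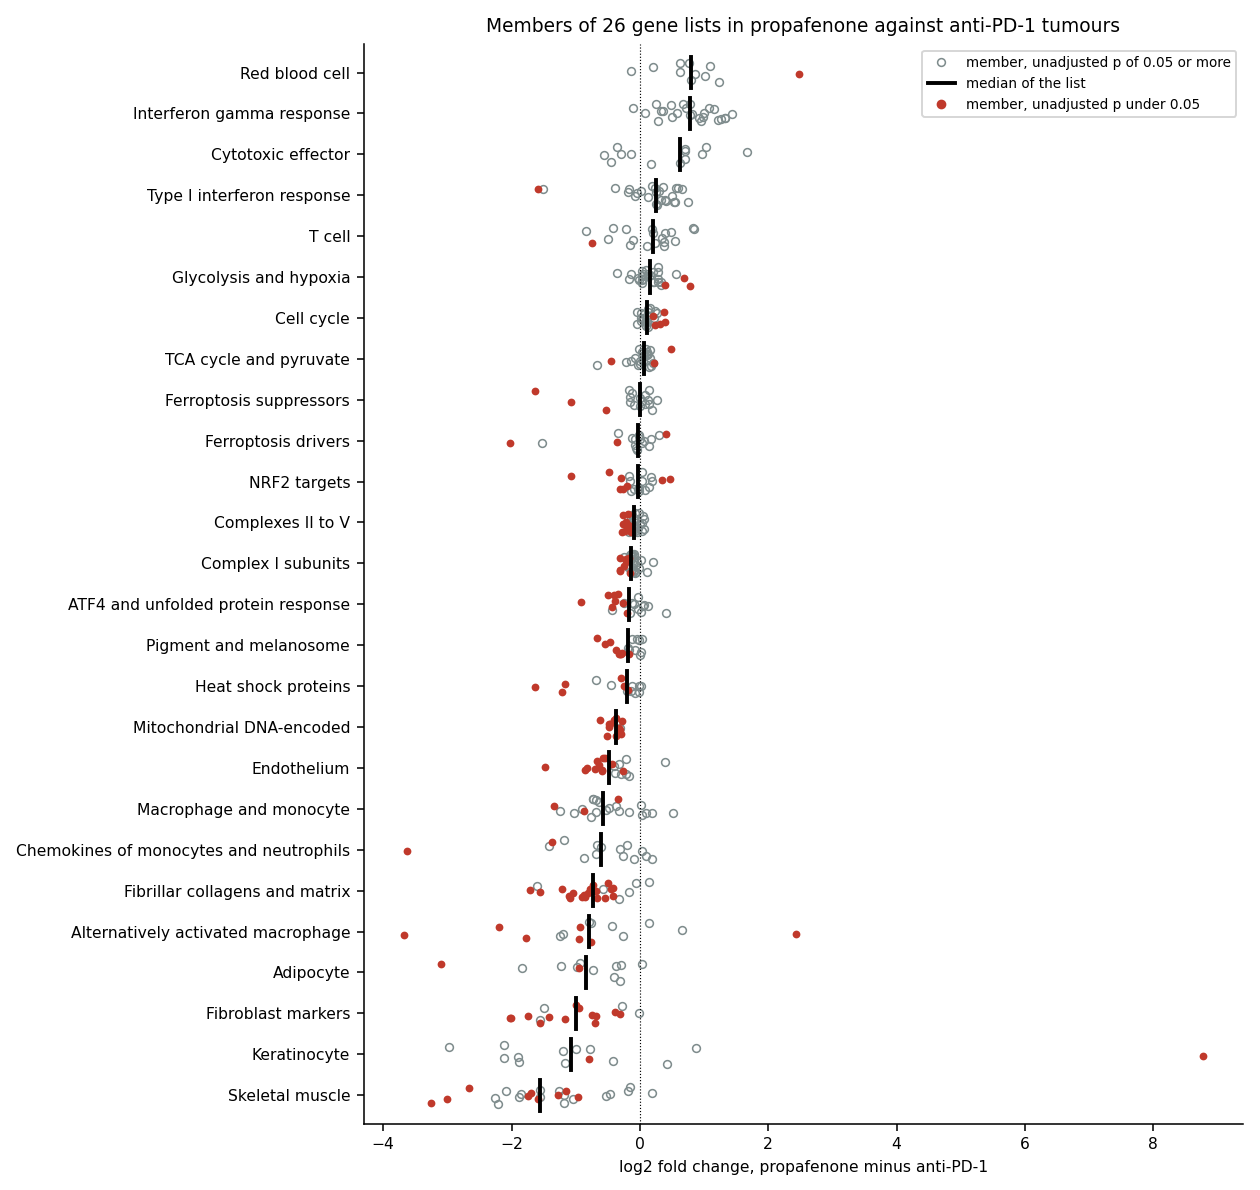
Log2 fold change, propafenone minus anti-PD-1 (x axis), of each tested member of 26 gene lists (y axis), filled where the unadjusted p was under 0.05, with the median of each list as a bar. The fibroblast and matrix medians lie at -1 and -0.73 and the interferon gamma median at 0.79, where none of the members has a filled point. The keratinocyte point at 8.78 is Krt77, at 0 CPM in all 5 anti-PD-1 tumours and above 0 in propafenone tumours 2 and 5 alone (3.31 and 1.16 CPM), so its fitted value depends on the prior count and is no bound.

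Markers of neighbouring tissue differed along with the stromal genes, and their part in the differences above was not tested. Skeletal muscle genes had a median of -1.55 over 25 members (24 lower, 9 at an unadjusted p under 0.05, where 7.81% of all genes were lower). Their summed level ran from 91.1 to 191 CPM in propafenone and from 67.8 to 491 CPM in anti-PD-1 tumours. Acta1, skeletal actin, measured 6.38, 23.2, 4.48, 26.3 and 16.8 CPM in the propafenone tumours and 123, 0.403, 71.1, 94.1 and 67.9 CPM in the anti-PD-1 tumours. Tumour 2 of anti-PD-1, at 0.403 CPM nearly without muscle RNA, was the one of the 10 with the most Col1a1 and Col3a1. With the muscle score as a covariate the edgeR test called 9 genes, Serpinf1 at -0.97, Atf5 at -0.97 and Tspan7 at -0.51 among them, and Postn stood at -0.79 and Lum at -1.53. Without tumour 2 of anti-PD-1, 16 of the 25 muscle genes were lower at an unadjusted p under 0.05, where 5.36% of all genes were. Adipocyte genes had a median of -0.84 (11 of 12 lower), which was -0.35 without tumour 1 of anti-PD-1 and turned to 0.0978 with the muscle score as a covariate. Keratinocyte genes had a median of -1.08 (11 of 14 lower), which turned to 1.05 without tumour 3 of anti-PD-1, which held 43.3 CPM of Krt14, and was -1.96 without tumour 2 of propafenone. Red blood cell genes had a median of 0.79 (10 of 11 higher), which was 0.07 without tumour 5 of propafenone and 2.23 without tumour 2 of anti-PD-1.

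Most genes of the oxidative phosphorylation system had a negative log2 fold change, and those of the mitochondrial genome had the lowest median. All 13 protein-coding genes of mitochondrial DNA had a negative log2 fold change (median -0.38). An unadjusted p under 0.05 was reached by 12, where 7.81% of all genes were lower at that level. mt-Nd3, a subunit of complex I, measured 176, 168, 174, 174 and 190.5 CPM in the propafenone tumours and 228, 333, 246, 192 and 229.7 CPM in the anti-PD-1 tumours. The groups did not overlap, though tumour 4 of anti-PD-1 lay within 2 CPM of tumour 5 of propafenone, and the log2 fold change was -0.48 (SE 0.11, edgeR adjusted p 0.129). mt-Nd2 did not overlap either, at -0.47 (SE 0.128, edgeR adjusted p 0.155).

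Nuclear-encoded subunits showed the same side at smaller size. Of 36 complex I subunits 33 stood lower (median -0.14, 9 at an unadjusted p under 0.05), and of 38 subunits of complexes II to V 33 stood lower (median -0.10, 11 at that level). Of all genes 7.81% were lower at that level. Without tumour 2 of anti-PD-1 the medians were -0.26 for mitochondrial DNA, -0.07 for complex I and -0.06 for complexes II to V, with 8 of 13, 2 of 36 and 3 of 38 members lower at an unadjusted p under 0.05. The shares of complex I and of complexes II to V were then 5.56% and 7.89%, near the 5.36% of all genes. The count for complex I was 15 without tumour 4 of anti-PD-1 (41.7% of the list, against 9.08% of all genes). That for complexes II to V was 6 (15.8%) without tumour 3 of anti-PD-1 or any of tumours 1, 2 and 4 of propafenone. Of all genes 8.69%, 6.51%, 6.49% and 10.7% were lower in those fits. Cytosolic ribosomal proteins, a list of another compartment, had 34 of 36 members lower with a median of -0.12, which was -0.05 without tumour 2 of anti-PD-1. Enzymes of the TCA cycle and pyruvate metabolism had no common side, with 16 of 25 higher and a median of 0.07 (0.018 to 0.105 when 1 tumour was left out). Among them Ogdh, a subunit of the oxoglutarate dehydrogenase complex, averaged 489 ± 16.0 CPM in propafenone and 419.6 ± 50.0 CPM in anti-PD-1 tumours (SD, n = 5 each) without overlap.

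Of 27 glycolysis and hypoxia genes 22 stood higher in propafenone, with a median of 0.16. An unadjusted p under 0.05 was reached by 3 (Hk2, Vegfa and Ero1l), where 7.29% of all genes were higher at that level. Hk2 (chr6:82725025-82774454, minus strand), the hexokinase that starts glycolysis in many tumours, measured 340, 358, 439, 361 and 425 CPM in the propafenone tumours and 240, 309, 311, 331 and 274 CPM in the anti-PD-1 tumours. Each propafenone tumour exceeded each anti-PD-1 tumour, the log2 fold change was 0.39 (SE 0.0991, edgeR adjusted p 0.148), and the IgG tumours measured 292 to 394 CPM. Ero1l, an oxidase of protein folding that hypoxia induces, measured 1077, 976, 2247, 823 and 1797 CPM in propafenone and 449.9, 1085, 823, 738 and 1225 CPM in anti-PD-1 tumours. As with Vegfa, tumours 3 and 5 of propafenone were highest and the others overlapped. The median of the list was 0.06 without tumour 1 of anti-PD-1, 0.26 without tumour 2 of anti-PD-1 and 0.10 and 0.09 without tumours 3 and 5 of propafenone. The count at an unadjusted p under 0.05 was 1 without either of those propafenone tumours (3.7% of the list, near the 3.83% and 4.69% of all genes). It was 7 without tumour 2 of anti-PD-1 (25.9%, against 6.2% of all genes). Without tumour 3 or tumour 5 of anti-PD-1 it was 5 (18.5%, against 7.89% and 7.66%).

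**Figure D4:**
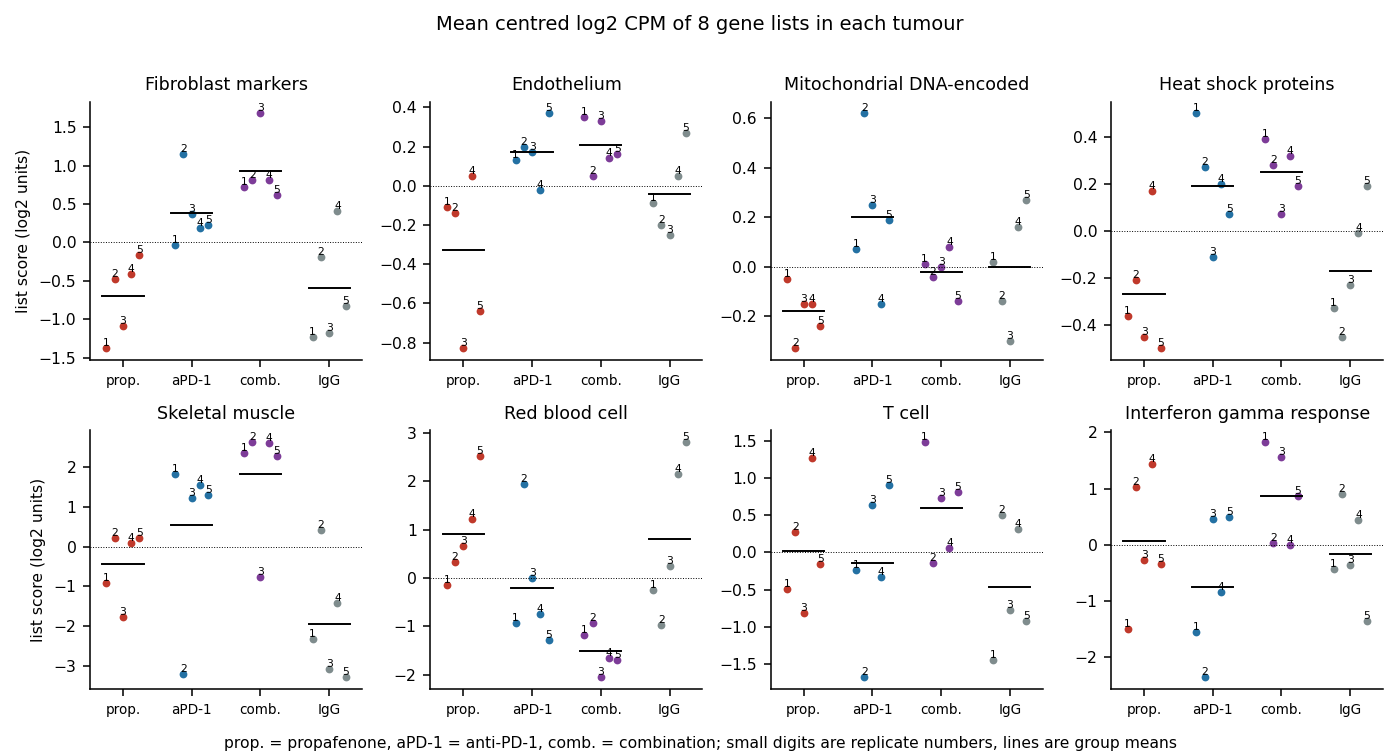
Score of 8 gene lists (y axes, mean centred log2 CPM) in each of the 5 tumours of propafenone, anti-PD-1, combination and IgG, with digits for replicate numbers and lines for group means. The fibroblast scores of propafenone, -1.38 to -0.17, lie below those of anti-PD-1, -0.04 to 1.15, and tumour 2 of anti-PD-1 lies at -3.21 in skeletal muscle.

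Heat shock genes are switched on by the factor HSF1, which binds inverted repeats of GAA, read as GAANNTTC, in their promoters. Of 15 heat shock genes 14 stood lower in propafenone (median -0.20) and 6 had an unadjusted p under 0.05, where 7.81% of all genes were lower at that level. That count was 2 (13.3% of the list) without any of tumour 1 of anti-PD-1, tumour 2 of anti-PD-1 and tumour 1 of propafenone. Of all genes 7.87%, 5.36% and 6.51% were lower in those fits. It was 3 without tumour 2 or tumour 5 of propafenone (20%, against 6.49% and 5.69%). The lowest log2 fold changes were those of inducible members. Hspb1, which encodes the small chaperone HSP27, carries 2 such matches upstream of its start, and Hspa1a and Hspa1b, the inducible HSP70 genes, carry 1 each. The letters occur on either strand in 6.69% of 32851 promoters in the 250 bases before the gene start, and in 6 of the 11 heat shock genes with a promoter entry. The stretches from 130 to 11 bases before the start are shown from RefSeq (GRCm38.p6), 5′ to 3′ on the gene's strand, with matches to GAANNTTC in capitals, for chr5:135887789-135887908 (plus), chr17:34972167-34972286 (minus) and chr17:34959249-34959368 (minus).
Hspb1: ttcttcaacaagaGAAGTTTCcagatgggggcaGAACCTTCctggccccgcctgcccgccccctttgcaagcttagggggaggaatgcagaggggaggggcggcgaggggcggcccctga
Hspa1a: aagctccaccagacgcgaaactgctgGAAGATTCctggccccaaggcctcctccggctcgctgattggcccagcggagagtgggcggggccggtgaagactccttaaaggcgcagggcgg
Hspa1b: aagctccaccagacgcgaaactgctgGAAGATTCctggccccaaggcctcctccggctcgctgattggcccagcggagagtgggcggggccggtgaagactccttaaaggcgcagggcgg
The Hspa1a and Hspa1b stretches read the same. A match is a description of the letters and not a measured binding site.

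Hspb1 measured 2.05, 2.57, 1.82, 2.39 and 2.79 CPM in the propafenone tumours and 9.68, 5.07, 6.3, 7.23 and 7.58 CPM in the anti-PD-1 tumours. All 5 anti-PD-1 tumours lay above all propafenone tumours, with a log2 fold change of -1.63 (SE 0.359, edgeR adjusted p 0.129). The combination tumours measured 3.09 to 16.1 CPM and the IgG tumours 1.34 to 4.75 CPM. Hspb1 is also made by muscle and skin. Tumour 2 of anti-PD-1, low in muscle RNA, held 5.07 CPM, and the log2 fold change was -1.73 without that tumour and -1.44 with the muscle score as a covariate.

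Hspa1b measured 9.02, 10.4, 5.82, 28.1 and 3.18 CPM in propafenone and 37.7, 29.8, 16.8, 23.3 and 23.2 CPM in anti-PD-1 tumours. Tumour 4 of propafenone was the sole one inside the anti-PD-1 range. The log2 fold change was -1.21 (SE 0.488, edgeR adjusted p 0.259), and -1.88 without that tumour (edgeR adjusted p 0.0395). Hspa1a gave -1.17 and, without tumour 4, -1.95 (edgeR adjusted p 0.0359), but these are near-identical copies whose reads the counting could have split, so they count as 1 observation. Of the abundant constitutive chaperones, Hsp90ab1 stood at -0.01 and Hspa8 at -0.15.

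The ATF4 pathway raises amino acid synthesis and import when amino acids run short or the endoplasmic reticulum is stressed. Of 20 of its genes and those of the unfolded protein response, 15 stood lower in propafenone (median -0.18). An unadjusted p under 0.05 was reached by 8, where 7.81% of all genes were lower at that level. These were Atf5, Phgdh, Asns, Psat1, Shmt2, Mthfd2, Dnajb9 and Herpud1. The median was -0.31 without tumour 1 of propafenone. The count was 5 without tumour 3 of anti-PD-1 (25% of the list, against 8.69% of all genes). It was 4 without tumour 5 of propafenone (20%, against 5.69%). Phgdh, the first enzyme of serine synthesis, measured 309, 297, 209, 293 and 214 CPM in the propafenone tumours and 311, 346, 441, 334 and 361 CPM in the anti-PD-1 tumours. The groups met but did not overlap, and the log2 fold change was -0.44 (SE 0.113, edgeR adjusted p 0.15). Asns, asparagine synthetase, averaged 211 ± 29.8 CPM in propafenone and 279.5 ± 74.5 CPM in anti-PD-1 tumours (SD, n = 5 each), with tumours 3 and 5 of anti-PD-1 highest at 377 and 339.7 CPM. Atf4 itself stood at -0.09, Ddit3 (CHOP) at 0.04 and Chac1 at 0.07.

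Slc7a11 (chr3:49892526-50443614, minus strand), the cystine importer that feeds glutathione and guards against ferroptosis, is a known ATF4 and NRF2 target. Its promoter is shown because it holds 2 matches, on opposite strands, to TGATGNAA, letters of the ATF4-binding element that occur in 3.45% of promoters on either strand, and in 4 of the 19 listed genes above with a promoter entry (Asns, Chac1, Herpud1 and Vldlr). The stretch is chr3:50443624-50443743 (minus strand, RefSeq, GRCm38.p6), from 130 to 11 bases before the start, with the matches in capitals.
Slc7a11: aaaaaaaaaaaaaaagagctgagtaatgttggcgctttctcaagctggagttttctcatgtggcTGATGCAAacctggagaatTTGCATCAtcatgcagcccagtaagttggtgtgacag
Its propafenone tumours measured 13.4, 7.45, 7.13, 9.24 and 5.23 CPM and its anti-PD-1 tumours 9.54, 6.61, 32.1, 14.2 and 27.2 CPM. Tumours 3 and 5 of anti-PD-1, the same that were highest in Asns, were the highest, and tumours 1 and 2 lay inside the propafenone range (log2 fold change -1.08, SE 0.335, edgeR adjusted p 0.187). The IgG tumours measured 9.08 to 14.9 CPM.

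**Figure D5:**
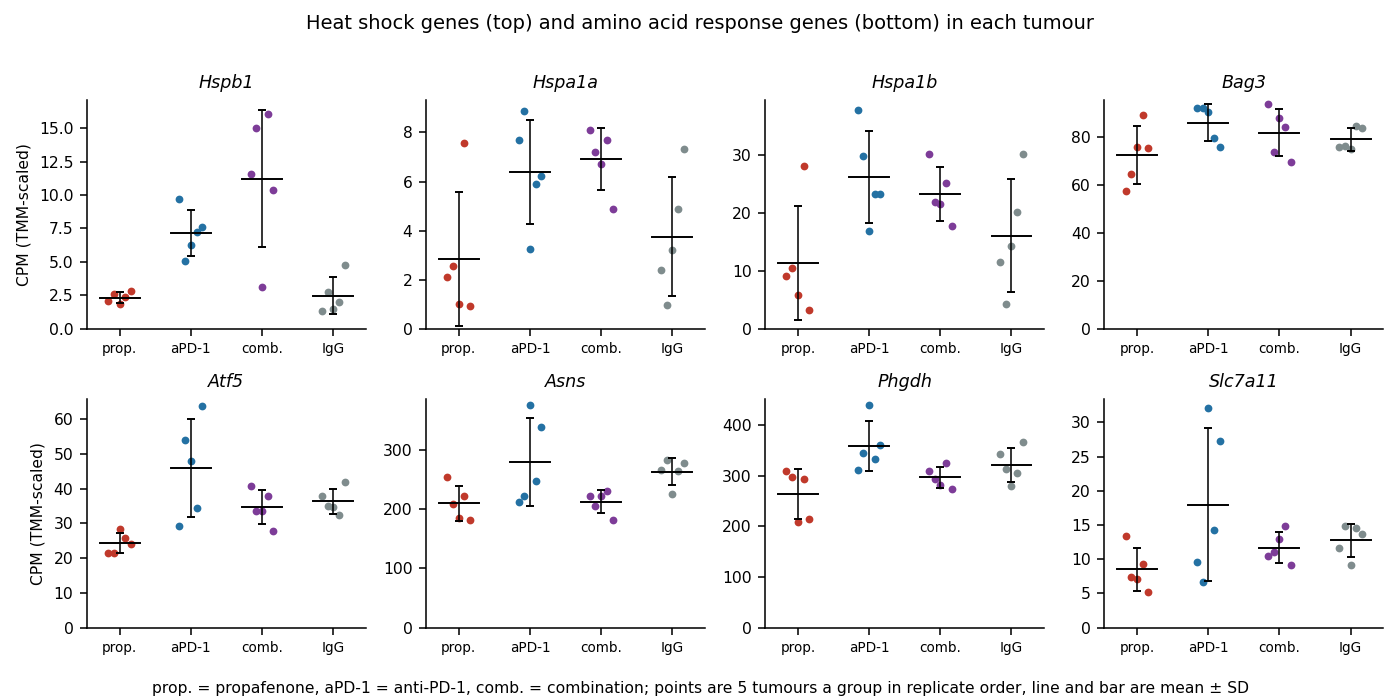
CPM (y axes, linear from 0) of 4 heat shock genes and 4 amino acid response genes in the 5 tumours of each group, propafenone leftmost, with mean and SD. The Hspb1 points of propafenone lie at 1.82 to 2.79 CPM, below all anti-PD-1 points at 5.07 to 9.68 CPM, while tumour 4 of propafenone reaches 28.1 CPM in Hspa1b.

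The medians of the ferroptosis lists stood near that of all genes, while the suppressor scores of the groups did not overlap. Those scores ran from -0.11 to -0.05 in propafenone and from 0.04 to 0.09 in anti-PD-1 tumours. The IgG scores, at -0.12 to 0.16, spanned both groups. A score is a mean, so single members with large differences weigh in it. The suppressors had a mean log2 fold change of -0.159, with Hspb1 at -1.63 and Slc7a11 at -1.08. The score without these 2 genes was not tested, so the separation is no statement on the whole list. Driver scores overlapped, at -0.37 to 0.09 and -0.14 to 0.31. Of the suppressors 3 (Hspb1, Slc7a11 and Gch1) were lower at an unadjusted p under 0.05, where 7.81% of all genes were, and 0 were higher. Of the drivers 2 were lower and 1 higher at that level. The 18 suppressors had a median of -0.002 (8 higher, 10 lower) and the 18 drivers of -0.03 (7 higher, 11 lower), and both medians changed sign when single tumours were left out, within -0.0945 to 0.0218 and -0.0666 to 0.0196. Gpx4, the peroxidase that repairs oxidised membrane lipids, averaged 235 ± 30.5 CPM in propafenone and 262 ± 57.2 CPM in anti-PD-1 tumours (SD, n = 5 each; log2 fold change -0.16, SE 0.113). Acsl4, which loads polyunsaturated fatty acids into membranes and favours ferroptosis, measured 52.5, 52.8, 58.5, 38.5 and 53.1 CPM in propafenone and 41.5, 24.6, 33.6, 46.1 and 47.0 CPM in anti-PD-1 tumours. All propafenone tumours but tumour 4 lay above every anti-PD-1 tumour (log2 fold change 0.40, SE 0.147, edgeR adjusted p 0.224). Hmox1 (haem oxygenase), Tfrc (transferrin receptor) and Fth1 (ferritin heavy chain) stood at 0.04, 0.15 and -0.09. Among 21 NRF2 targets, the NADPH-making enzymes G6pdx and Me1 stood at 0.48 and 0.34, against -0.26 for Prdx1 and -0.32 for Gstm1, and the median was -0.03 (-0.128 to 0.0226 when 1 tumour was left out).

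The interferon genes that a response to anti-PD-1 usually raises varied widely within both groups. All but 1 of 25 interferon gamma response genes stood higher in propafenone (median 0.79), and 0 reached an unadjusted p under 0.05. Cxcl9, the interferon-induced attractant of T cells, measured 3.66, 36.7, 8.25, 43.1 and 9.01 CPM in propafenone and 4.63, 1.44, 32.6, 8.61 and 37.5 CPM in anti-PD-1 tumours. Each group held 2 high tumours and 3 low ones. The interferon gamma median was 0.37 without tumour 4 of propafenone and 0.57 without tumour 2 of anti-PD-1. It was 1.05 without tumour 1 of propafenone, and 1.06 and 1.14 without tumours 3 and 5 of anti-PD-1. In these last fits 5, 1 and 3 of the 25 members were higher at an unadjusted p under 0.05, where 6.77%, 7.89% and 7.66% of all genes were. Against the shared IgG group the median was 0.44 in propafenone and -0.41 in anti-PD-1. Of 26 type I interferon response genes 19 stood higher in propafenone, with a median of 0.26. That median was 0.0967, 0.13, 0.43 and 0.455 without tumours 1, 4, 3 and 5 of anti-PD-1, and 0.45, 0.12 and 0.16 without tumours 1, 3 and 4 of propafenone.

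T cell genes, Thy1 among them, summed to 10.6 to 33.5 CPM in the propafenone tumours and 18.8 to 37.6 CPM in the anti-PD-1 tumours. The most abundant members weigh most in such a sum. T cell scores averaged 0.02 in propafenone (-0.81 to 1.26) and -0.14 in anti-PD-1 tumours (-1.67 to 0.9). Thy1, a surface protein that the fibroblast list also holds, averaged 6.87 ± 1.64 CPM in propafenone and 11.6 ± 3.21 CPM in anti-PD-1 tumours (SD, n = 5 each) without overlap. Cd8a averaged 0.691 ± 0.353 CPM in propafenone and 0.529 ± 0.553 CPM in anti-PD-1 tumours (SD, n = 5 each; log2 fold change 0.38, SE 0.77), and Pdcd1, the gene of the antibody's target, stood at -0.03 (SE 0.803). The T cell list had 12 of 19 members higher (median 0.20), which turned to -0.51 without tumour 4 of propafenone and was 0.465 without tumour 3 or tumour 5 of anti-PD-1, 0.0455 and 0.0263 without tumours 2 and 4 of anti-PD-1, and 0.40 and 0.42 without tumours 1 and 3 of propafenone. Cytotoxic genes had 8 of 13 higher (median 0.62), which was 0.09 without tumour 4 of propafenone and -0.04 without tumour 2 of propafenone. It was 0.14 without tumour 5 of propafenone and 0.31, 0.34 and 0.31 without tumours 1, 2 and 4 of anti-PD-1. For Cd8a and Pdcd1 the SE was larger than the log2 fold change.

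Myeloid genes leaned the other way. Of 22 macrophage and monocyte genes 17 stood lower in propafenone (median -0.58), 3 (Cd14, Ms4a7 and Apoe) with an unadjusted p under 0.05, where 7.81% of all genes were lower. That count was 8 without tumour 4 of propafenone (36.4% of the list, against 10.7% of all genes). It was 1 without any of tumours 1 and 3 of propafenone and tumour 5 of anti-PD-1 (4.55%, below the 6.51%, 6.23% and 7.86% of all genes). Lyz2, lysozyme of macrophages, measured 16.2, 36.6, 12.9, 57.5 and 38.2 CPM in the propafenone tumours and 36.0, 61.1, 47.6, 63.2 and 58.7 CPM in the anti-PD-1 tumours, overlapping in 3 propafenone tumours (log2 fold change -0.72, SE 0.444, edgeR adjusted p 0.457). Of 15 markers of alternatively activated macrophages 12 stood lower (median -0.80). Of the 3 on the other side the farthest was Chil3, a secreted chitinase-like protein of macrophages, which measured 0.239, 2.55, 4.74, 1.9 and 5.8 CPM in propafenone and 0.575, 0.634, 0.765, 0.552 and 0.274 CPM in anti-PD-1 tumours. All propafenone tumours but tumour 1 lay above every anti-PD-1 tumour (log2 fold change 2.44, SE 0.666, edgeR adjusted p 0.155). Chemokines of monocytes and neutrophils had 12 of 15 members lower (median -0.60, which was -0.35, -0.31 and -0.39 without tumours 1, 3 and 5 of propafenone and -0.39 without tumour 4 of anti-PD-1), Cxcl5 without overlap at 0 to 0.239 CPM in propafenone and 0.333 to 2.5 CPM in anti-PD-1 tumours.

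Tumour cell programmes differed by small amounts. Of 18 pigment genes 16 stood lower in propafenone (median -0.18, and -0.28 without tumour 4 of propafenone). An unadjusted p under 0.05 was reached by 9, where 7.81% of all genes were lower at that level. That count was 6 (33.3% of the list) without tumour 1 or 2 of anti-PD-1 or tumour 2 or 5 of propafenone. Of all genes 7.87%, 5.36%, 6.49% and 5.69% were lower in those fits. It was 11 without tumour 4 of propafenone (61.1%, against 10.7%). Pmel, the fibre protein of melanosomes, measured 3182, 2915, 2549, 4177 and 2782 CPM in the propafenone tumours and 4098, 5438, 4607, 3615 and 3764 CPM in the anti-PD-1 tumours. Tumour 4 of propafenone was the sole one in the anti-PD-1 range (log2 fold change -0.46, SE 0.139, edgeR adjusted p 0.176). Without it Pmel, Slc24a5 and Gpr143 were called, where 0.977% of all genes were called lower. Tyr, the first enzyme of melanin synthesis, stood at -0.002 and Mitf, the master factor of the lineage, at -0.29 (SE 0.328).

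Of 26 cell cycle genes 24 stood higher in propafenone (median 0.11, and 0.0695 without tumour 5 of anti-PD-1), 5 at an unadjusted p under 0.05 where 7.29% of all genes were higher at that level. Rrm2, a subunit of ribonucleotide reductase, measured 469, 473, 445, 314 and 488 CPM in the propafenone tumours and 369, 291, 278, 401 and 333 CPM in the anti-PD-1 tumours. Tumour 4 of propafenone, at 314 CPM, was the sole one below the top of the anti-PD-1 range (log2 fold change 0.39, SE 0.115, edgeR adjusted p 0.173). Without it the value was 0.49 (edgeR adjusted p 0.0283), and Bub1 and Kif20a, a checkpoint kinase and a mitotic motor protein, were called as well. Of all genes 0.99% were called higher in that fit.

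Genes of the channels and receptors that propafenone is known to act on were mostly at low counts. Of the listed ion channels and beta receptors 14 could be tested, with 10 lower and a median of -0.28, which was -0.0589 without tumour 2 of anti-PD-1. The beta receptor gene Adrb1 did not pass the filter on low counts. Kcnq1 and Kcnj2, potassium channel genes, averaged 1.28 and 1.26 CPM in propafenone and 2.61 and 2.26 CPM in anti-PD-1 tumours (log2 fold changes -1.03 and -0.85, edgeR adjusted p 0.215 and 0.247), and both overlapped between the groups.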

How the data were processed

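Bulk RNA from 20 tumours was sequenced with a SMARTER mRNA-seq kit per the labels. The deposited gene table holds expected counts, which the authors gave as whole estimated counts per gene with no scaling. A deposited table of TPM, made by the authors, entered the alternatives. HISAT2 2.2.1, SAMtools 1.9 and FastQC, with the builds mm10 and GRCm38, are named in the submitters' processing notes. The counting tool, annotation and strand setting are not given in the sources used here. Among low values 4 and 8 are over-frequent, so 1 count need not be 1 read. Totals were 56 to 64.5 M (mega) per library, with 16697 to 17852 genes above 0.

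The quasi-likelihood test of edgeR 4.0.16 (R 4.3.3, TMM, genes kept by filterByExpr, two-sided) was applied over all 20 libraries, 4 groups and 16 residual degrees of freedom, and the contrast was propafenone minus anti-PD-1. Of 32285 genes listed, 15875 passed the filter, holding 99.98% of counts. An adjusted p under 0.05 (Benjamini-Hochberg over all genes tested) was called. The fit was tested on simulated data with known changes. Alternatives used limma 3.58.1, DESeq2 1.42.0, other scalings, filters, pseudocounts of 1 and 0.1 on TPM, a replicate block, a muscle score as covariate, counts divided by 4, and left-out libraries. Replicate numbers did not pair the libraries: 5 same-number pairs had a mean residual correlation of 0.0169 (-0.221 to 0.189), and 3 of 10 libraries correlated best with their own number.

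The genes named were those called or, with none called, the 8 of smallest p per direction at 1 CPM or more, a fixed panel, and up to 4 members of smallest p in each described list. Chil3, Acta1, Col3a1, Col1a1, Cdh5, G6pdx, Kcnq1 and other members given with a value outside this rule were chosen after their values were seen. Values of some single genes are not reported here. The groups and all 48 gene lists were chosen with earlier results of these data known. Lists are described by counts and medians with no test. Coordinates come from GENCODE mouse release 21 (GRCm38), which held 32158 of the 32285 identifiers, and promoter sequences from RefSeq (GRCm38.p6).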

Additional observations from a re-analysis of the deposited data

Results flagged for a closer look

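In 24 of 254 values of a named gene in a group of 5, the highest or lowest tumour lay far from the other 4 (Dixon's test at the 95% level, which flags about 1 in 20 groups by chance). No explanation was tested.

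In tumour 2 of anti-PD-1 the value was high for Cxcl5 (2.5 CPM, others 0.333 to 0.741), Cyb5r1 (74 CPM, others 54.4 to 59.3), Atp5h (229 CPM, others 160.1 to 175), Dcn (24.6 CPM, others 7.94 to 10.9), Ptgs2 (7.34 CPM, others 0.815 to 1.37), Lyve1 (11.1 CPM, others 0.367 to 3.29), Slc4a1 (3.13 CPM, others 0.129 to 0.781), Car2 (3.32 CPM, others 0.431 to 0.693) and Bpgm (86.5 CPM, others 48.7 to 56.9). In tumour 3 of anti-PD-1 it was high for the keratinocyte genes Krt14 (43.3 CPM, others 0 to 2.41), Perp (11.1 CPM, others 0.557 to 0.946), Sfn (8.84 CPM, others 2.22 to 3.19) and Trp63 (0.798 CPM, others 0 to 0.224). In tumour 5 of anti-PD-1 it was high for Cd28 (0.548 CPM, others 0.0768 to 0.2).

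In tumour 4 of propafenone the value was high for Cd3g (1.88 CPM, others 0.27 to 0.504), Hspa1a (7.57 CPM, others 0.913 to 2.57) and Slc24a5 (791 CPM, others 519 to 593), and low for Rrm2 (314 CPM, others 445 to 488). In tumour 5 of propafenone it was high for the red blood cell genes Slc4a1 (17.7 CPM, others 1.46 to 2.62) and Car2 (6.71 CPM, others 0.875 to 2.17), for Lyve1 (1.99 CPM, others 0.292 to 0.685) and for Retnla (0.179 CPM, others at 0). Tumour 2 of propafenone was high for Krt14 (5.32 CPM, others 0 to 0.652) and tumour 3 for Tfrc (758 CPM, others 634 to 668).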

How the results depend on the processing

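The count of genes called in propafenone against anti-PD-1 was 0 with all libraries. It was also 0 with DESeq2 size factors in edgeR, library totals, no filter on low counts, at least 1 CPM in 5 libraries, only the 10 libraries compared, limma voom, log2(TPM + 0.1), counts divided by 4, and without the 5 libraries above 1000 CPM of Hbb-bs. It was 253 with DESeq2 (of which 170 were among the 316 called by edgeR without propafenone 4), 1 on log2(TPM + 1), 9 with the muscle score as covariate, and 0 to 316 when each of the 20 libraries was left out. The replicate block left 0 called genes and 2240 below an unadjusted p of 0.05, and since the numbers did not pair the libraries this says nothing on the design. The cause of these differences was not tested. Signs of single genes turned as follows. Without the Hbb-bs-rich libraries the log2 fold changes were 0.014 for Fth1, -0.11 for Cd28, -0.40 for Cd3g, -0.0676 for Prf1, -0.34 for Cd8a and -0.36 for Cxcl9. With the muscle covariate they were -0.055 for Hmox1 and 0.47 for Pdcd1, which stood at 0.50 with limma voom, 0.0603 on log2(TPM + 1) and 0.36 on log2(TPM + 0.1). Over the left-out libraries the ranges were -5.55 to 0.0291 for Krt14, -1.59 to 0.79 for Perp, -0.15 to 0.0226 for Fth1, -0.036 to 1.56 for Cd3g, -0.0103 to 0.60 for Jun, -0.24 to 0.77 for Cxcl9, -0.14 to 0.40 for Hmox1 and -0.47 to 0.75 for Pdcd1. Among list medians, adipocyte genes turned to 0.0978 with the muscle covariate and keratinocyte genes to 0.48 with the replicate block. The skeletal muscle median was 0.0789 with the muscle covariate, near 0 by construction, since that covariate is the mean of the same genes. The T cell median was -0.73 without the Hbb-bs-rich libraries, -0.27 on counts divided by 4, -0.0889 at 1 CPM in 5 libraries and -0.0162 with the replicate block. The cytotoxic median was -0.0676 without the Hbb-bs-rich libraries, -0.23 on counts divided by 4 and -0.145 with only the 10 libraries. Ferroptosis and NRF2 medians, near 0, also turned, with 0.0543, 0.0372 and 0.0462 the highest for suppressors, drivers and NRF2 targets outside the left-out libraries. The number of tumours, 5 a group, limits the precision.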

Other observations

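Of 22 lysosome genes 17 stood lower in propafenone than in anti-PD-1 tumours (median log2 fold change -0.14). An unadjusted p under 0.05 was reached by 8, where 7.81% of all genes were lower at that level. That count was 5, 13 and 4 without tumours 2, 4 and 5 of propafenone, where 6.49%, 10.7% and 5.69% of all genes were. The protease gene Ctsd did not overlap between the groups, at 921 to 1177 CPM in propafenone and 1179 to 1603 CPM in anti-PD-1 tumours. Of 13 melanocyte regulators and phenotype switch genes 10 stood lower (median -0.29), and Ednrb, the endothelin receptor of melanocytes, measured 12.5, 11.1, 8.29, 9.26 and 10.4 CPM in propafenone and 14.8, 11, 17.9, 14.6 and 20.6 CPM in anti-PD-1 tumours. Tumour 2 of anti-PD-1 was the sole anti-PD-1 tumour inside the propafenone range (log2 fold change -0.61, SE 0.171, edgeR adjusted p 0.157). Cholesterol synthesis genes had no common side, with 11 of 20 higher and a median of 0.08, which was 0.0294 without tumour 2 of anti-PD-1. Lss, lanosterol synthase, measured 116 to 155 CPM in propafenone and 95.7 to 125 CPM in anti-PD-1 tumours, with a log2 fold change of 0.33 (SE 0.0886, edgeR adjusted p 0.155), and was called without tumour 4 of propafenone (edgeR adjusted p 0.0326).

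The 8 genes of smallest p in each direction among those called without tumour 4 of propafenone included Fam184b, Lrp8, Homer1, Blm and Cep170 on the higher side and Slc9a9, Smpdl3a, Sh3bp5l, Zdhhc18, Iah1 and Oaf on the lower side, besides genes already described. Slc9a9, an endosomal sodium-proton exchanger, measured 8.11, 6.03, 5.9, 11.5 and 5.1 CPM in propafenone and 13.3, 13.4, 12.8, 13.3 and 11.1 CPM in anti-PD-1 tumours. Tumour 4 of propafenone was the sole one to reach the anti-PD-1 range, and the log2 fold change was -0.80 with all libraries and -1.02 without that tumour. Fam184b measured 20.3, 21.8, 34, 11 and 28.9 CPM in propafenone and 10.4, 10.4, 9.93, 12.5 and 17.1 CPM in anti-PD-1 tumours, again with tumour 4 as the sole overlap, and stood at 0.94 with all libraries and 1.13 without it. Both genes were picked from those called by leaving tumour 4 out, so its overlap in them follows in part from that choice.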
